A study of Mus musculus with 15 samples.

Results

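The replication-dependent histone genes are the genes of the mouse genome that encode the linker histone H1 and the H2A, H2B, H3 and H4 proteins of the nucleosome core made in S phase. They were taken as the RefSeq genes of GRCm38.p6 with symbols that begin with H2ac, H2bc, H3c or H4c, or that are H1f1 to H1f6, the names that replaced Hist1h and Hist2h symbols. This gave 65 of 49554 genes on chromosomes 1 to 19 and X, of which 63 are protein-coding and 2 (H2ac14 and H2ac5-ps) are pseudogenes. By the histone they encode, 6 are H1 genes, 19 H2A, 16 H2B, 12 H3 and 12 H4 genes. On chromosome 13 lie 55 of them, and the other 10 lie on chromosome 3. Their median span is 490 bp, and each gene was examined over its span plus 1 kb on each side, called its window here.

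The windows were read in EL4 cells, a T lymphocyte lymphoma line of C57BL/6N origin that was grown without any treatment given in the labels. ChIP-seq with antibodies to H3K4me3, H3K9ac, H3K27ac, H3K36me2 or H3K27me3 and ATAC-seq, which cuts DNA where it is accessible, were each done in 2 replicates, which the methods call technical for ATAC-seq and for merged peaks. All libraries came from 1 line in 1 condition. The data were 12 lists of called intervals (peaks) with no height or score, so a gene is either touched by an interval or not, by at least 1 bp, and the only sizes are widths and base pairs covered. The depth of the libraries is unknown. Neither the input nor RNA-seq is used, so no level of histone mRNA is given. At the T cell genes Cd3e, Cd3d, Cd3g, Lck, Thy1 and Ptprc, H3K4me3 was called in both replicates at 6 of 6. It was called at 2 of 4 B cell genes (Pax5 and Cd79a) and 1 of 4 myeloid genes (Itgam). The share over all protein-coding genes was 50.9%.

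Most of these genes have no introns and their mRNAs end in a stem-loop in place of a poly(A) tail. They are transcribed in nuclear bodies that gather around the clusters, where the coactivator NPAT, phosphorylated by cyclin E and CDK2, switches them on as DNA replication starts. Many H2A and H2B genes stand head to head and share a short promoter. H3K4me3, H3K9ac and H3K27ac mark nucleosomes at the starts of active genes, H3K36me2 is found over broad stretches within and between genes, and H3K27me3 is the mark of Polycomb repression.

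The starts of 58 of the 65 genes are given in a table of RefSeq promoters (GRCm38.p6). The 250 bases before each start were searched on both strands for TATAAA (the TATA box), CCAAT, ATTTGCAT (the octamer bound by OCT1) and AAACACA (the AC box of H1 genes), none of which contains another of them. TATAAA was found before 28 of 58 histone genes (48.3%) and 12.97% of 27025 promoters, and CCAAT before 48 (82.8%) and 34.5%. The octamer was found before 12 (20.7%) against 1.61% of all promoters. It stood in the reading direction before 6 of 14 H2B genes and on the other strand before 6 H2A genes. No H1, H3 or H4 gene had it. Head-to-head H2A and H2B genes share upstream DNA, so 1 word there can count for both genes. The 12 genes thus need not hold 12 separate octamers. The AC box stood before 5 of 6 H1 genes, against 6.22% of all promoters. The promoters of 6 genes are printed with these words in capitals on either strand, as examples of marked and unmarked genes. H2bc8 has the octamer close to TATAAA and shares its upstream DNA with H2ac8, H3c10 and H1f5 are marked genes, H4c11 is marked and holds none of the 4 words, and H1f6 (a testis linker histone) and H2bc1 (testis H2B) had none of the assays' intervals.
H2bc8 (chr13:23571150-23571399, plus strand): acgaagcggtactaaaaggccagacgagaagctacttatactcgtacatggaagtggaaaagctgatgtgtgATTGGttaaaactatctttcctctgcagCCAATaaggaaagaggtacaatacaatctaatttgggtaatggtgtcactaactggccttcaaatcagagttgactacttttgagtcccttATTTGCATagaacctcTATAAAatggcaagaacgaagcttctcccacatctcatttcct
H3c10 (chr13:21717378-21717627, plus strand): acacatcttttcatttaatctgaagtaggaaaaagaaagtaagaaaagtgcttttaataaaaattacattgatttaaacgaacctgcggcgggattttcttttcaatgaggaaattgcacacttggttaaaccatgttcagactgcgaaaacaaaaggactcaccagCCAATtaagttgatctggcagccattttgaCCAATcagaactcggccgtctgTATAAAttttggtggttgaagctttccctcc
H1f5 (chr13:21780626-21780875, minus strand): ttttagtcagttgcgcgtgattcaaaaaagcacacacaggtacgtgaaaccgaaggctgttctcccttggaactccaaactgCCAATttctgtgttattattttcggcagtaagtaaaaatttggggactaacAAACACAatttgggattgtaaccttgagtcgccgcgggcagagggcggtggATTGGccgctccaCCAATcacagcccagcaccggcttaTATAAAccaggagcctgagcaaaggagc
H4c11 (chr13:21734784-21735033, plus strand): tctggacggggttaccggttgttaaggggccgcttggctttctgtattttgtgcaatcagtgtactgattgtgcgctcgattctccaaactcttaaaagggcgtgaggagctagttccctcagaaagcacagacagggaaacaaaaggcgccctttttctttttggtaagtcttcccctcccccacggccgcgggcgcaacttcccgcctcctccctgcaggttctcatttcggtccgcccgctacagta
H1f6 (chr13:23695561-23695810, plus strand): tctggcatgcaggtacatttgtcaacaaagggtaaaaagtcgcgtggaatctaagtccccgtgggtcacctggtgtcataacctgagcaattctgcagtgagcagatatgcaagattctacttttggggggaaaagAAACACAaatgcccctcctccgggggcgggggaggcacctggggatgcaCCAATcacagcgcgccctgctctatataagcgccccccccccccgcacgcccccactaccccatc
H2bc1 (chr13:23934157-23934406, minus strand): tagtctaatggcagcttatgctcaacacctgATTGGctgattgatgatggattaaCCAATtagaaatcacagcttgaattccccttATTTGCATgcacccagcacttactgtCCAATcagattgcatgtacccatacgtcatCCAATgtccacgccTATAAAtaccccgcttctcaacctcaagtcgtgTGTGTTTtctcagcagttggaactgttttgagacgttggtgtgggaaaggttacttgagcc
The words also occur before genes without a peak. TATAAA stood before 5 of 17 genes that had none of H3K4me3, H3K9ac, H3K27ac and ATAC-seq in both replicates, and before 23 of the other 41. CCAAT stood before 12 of the 17 and 36 of the 41, the octamer before 3 and 9, and the AC box before 3 and 6.

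Most of the histone genes carried the 3 narrow marks, few were touched by H3K36me2 and none by H3K27me3. H3K4me3 touched 45 windows in replicate 1, 45 in replicate 2 and 44 in both (67.7%), against 29% of all genes. Among protein-coding genes the share was 50.9%, and among those with a span of at most 2 kb, which are as short as most histone genes, it was 10.2%. H3K9ac touched 47, 46 and 46 windows in replicate 1, replicate 2 and both against 27.9% of all genes, 49.6% of coding and 10.3% of short coding genes. H3K27ac touched 47, 46 and 45, against 29%, 50.7% and 10.3%, and ATAC-seq 40, 39 and 36, against 25.3%, 46.1% and 8.64%. The shares of the 4 narrow sets lay above those of all genes. H3K36me2 touched 5, 4 and 3 windows, against 28.3% of all genes, 44.6% of coding genes and 7.33% of short coding genes, and H3K27me3 touched 0 in either replicate, against 15.2%, 16.9% and, for short coding genes, 14%. Read within 1 kb of the start instead, for the 58 genes with one, H3K4me3 was called in both replicates at 37 (34% of all genes with a start), H3K9ac at 40 (33.5%), H3K27ac at 39 (33.9%), ATAC-seq at 30 (29.9%), H3K36me2 at 1 (13.2%) and H3K27me3 at 0 (7.69%). No test was made, since genes of a cluster share their surroundings and 2 replicates against 2 cannot give an exact two-sided permutation p under 0.333.

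**Figure D1:**
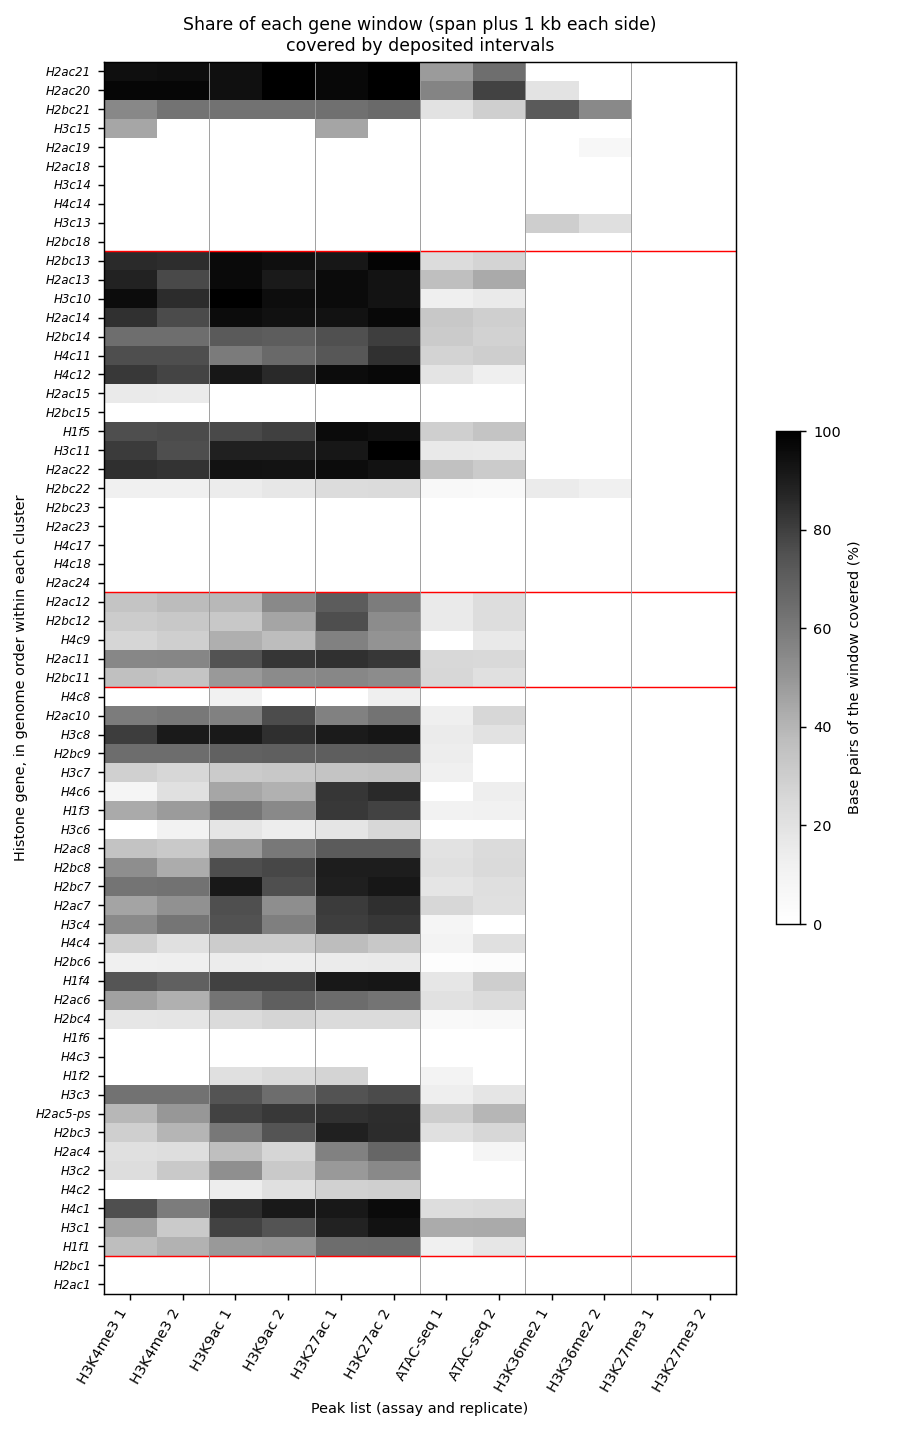
Share of each histone gene's window (gene span plus 1 kb on each side, rows in genome order, clusters parted by red lines) covered by intervals of each assay and replicate (columns), from 0% (white) to 100% (black). The 3 narrow marks fill mostly the same rows, 18 rows have none of the 4 narrow sets in both replicates, and both H3K27me3 columns are white.

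Among the histone genes, 36 had all of H3K4me3, H3K9ac, H3K27ac and ATAC-seq in both replicates, and 18 had none of them in both. Such combinations were not counted over all genes, so whether joint calls are particular to histone genes cannot be said. The 3 marks without ATAC-seq were found at 7 genes (H4c9, H2bc9, H3c7, H4c6, H3c4, H2ac4 and H3c2). ATAC-seq was called at 6 of those 7 in 1 replicate only and at H3c2 in neither. Both acetylations without H3K4me3 were found at H3c6 and H4c2, H3K9ac alone at H1f2 and H3K4me3 alone at H2ac15. Windows of neighbours overlap, so 1 interval can count for several genes.

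Of the 6 H1 genes, 4 had H3K4me3 in both replicates, and these 4 also had both acetylations and ATAC-seq. H1f5 (chr13:21779832-21780625) had the highest mean coverage by H3K4me3, H3K27ac and ATAC-seq, with 75.8% and 76.9% of its window under H3K4me3 in replicates 1 and 2, 96.0% and 94.7% under H3K27ac, and 28.9% and 34.1% under ATAC-seq. Under H3K9ac H1f5 (77.3% and 79.8%) was below H1f4 (79.5% and 79.6%) in replicate 1 and above it in replicate 2. H1f4 followed with 73.8% and 69.5% under H3K4me3, then H1f3 with 43.5% and 48.3% and H1f1 with 36.7% and 40.9%. All 4 encode somatic linker histones of dividing cells, and their order under H3K27ac was alike for the replicates (H1f5, H1f4, H1f3, H1f1). H1f2, the fifth somatic gene, had 0% H3K4me3 in both replicates, 20.8% and 24.3% H3K9ac, and H3K27ac (27.1%) and ATAC-seq (9.80%) in replicate 1 only. The testis gene H1f6 had 0% in all 12 lists.

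H2A genes carried the marks at 14 of 19 for H3K4me3 and 13 of 19 for each acetylation. H2ac20 and H2ac21, adjacent genes at chr3:96219885-96220880, had the highest H3K4me3 coverage of all 65 genes as the mean of both replicates, at 97.6% and 97.3% of the window of H2ac20 and 94.7% and 95.3% of that of H2ac21. Their ATAC-seq coverage was also high, at 56.0% and 79.2% for H2ac20. On chromosome 13, H2ac13 had 88.0% and 77.1% under H3K4me3 and H2ac22 had 84.7% and 83.3%. At the low end, H2ac4 had 21.4% and 22.0% and H2ac15 had 15.3% and 15.2%, the latter with no acetylation and no ATAC-seq in either replicate. The pseudogenes were marked too. H2ac14 had 84.0% and 76.6% under H3K4me3 and H2ac5-ps 39.3% and 49.4%, and both had ATAC-seq in both replicates. H2ac18, H2ac19, H2ac23, H2ac24 and testis H2ac1 had none of the 4 narrow sets.

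Among the 16 H2B genes, 12 had H3K4me3 in both replicates. H2bc13 had 85.8% and 85.0% of its window under H3K4me3 and 96.2% and 94.7% under H3K9ac, and H2bc14 had 64.4% and 64.4% under H3K4me3. H2bc6, H2bc4 and H2bc22 are annotated with long spans, and H3K4me3 covered 12.5% and 12.6%, 17.8% and 18.5%, and 12.0% and 11.7% of their windows. For these genes the share is of a wide window and cannot be set against that of a short gene. H2bc21 (chr3:96221072-96223738) held narrow marks and H3K36me2 together, with H3K4me3 over 55.0% and 62.3% and H3K36me2 over 71.5% and 54.4%. The genes without a narrow mark were H2bc15, H2bc18, H2bc23 and testis H2bc1. H2bc15 stands head to head with H2ac15, which had H3K4me3 alone.

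H3 genes had H3K4me3 at 8 of 12. H3c10 had 95.5% and 85.3% of its window covered, H3c8 80.7% and 91.0%, and H3c11 81.0% and 76.0%. H3c10 was ahead in replicate 1 and H3c8 in replicate 2, so their order did not hold across replicates. H3c6 had H3K4me3 in replicate 2 only (10.2%) but H3K27ac in both (18.4% and 25.6%). H3c15 on chromosome 3 was covered in replicate 1 only, with 44.5% and 0% under H3K4me3 and 45.1% and 0% under H3K27ac. Its neighbours H3c14 and H3c13 had 0% of the narrow marks, and H3c13 had H3K36me2 over 29.8% and 21.8%.

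H4 genes were touched least often, with H3K4me3 at 6 of 12. The median share of the window under H3K4me3, as the mean of both replicates, was 7.36% for H4 genes. It was 42.4% for H1, 44.0% for H2A, 33.1% for H2B and 33.3% for H3 genes, and no test of these differences was made. The H4 value lies midway between genes at 0% and the lowest called H4 gene (14.7%). The H2A, H2B, H3 and H4 medians include genes with repeated promoter sequence (described below), where a missing peak cannot be told apart from missing reads. H4c12 had 81.9% and 78.6%, H4c11 75.9% and 75.9% and H4c1 75.7% and 59.2% under H3K4me3. H4c6 had little H3K4me3 (8.56% and 20.9%) under wide H3K27ac (82.7% and 86.2%). H4c2 had no H3K4me3 and 28.4% and 28.9% H3K27ac, and H4c8 had H3K9ac in replicate 1 (11.2%) and H3K27ac in replicate 2 (12.7%) only. H4c3, H4c14, H4c17 and H4c18 had no narrow mark. Of the H4 promoters, 3 of 11 held CCAAT, whereas all 17 H2A, all 14 H2B and all 6 H1 promoters did, and 8 of 10 H3 promoters.

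The 18 genes without any narrow set in both replicates were H3c13, H3c14, H3c15, H2ac18, H2ac19, H4c14 and H2bc18 on chromosome 3, H2bc15, H2bc23, H2ac23, H2ac24, H4c17 and H4c18 in the first group on chromosome 13, H4c8, H4c3 and H1f6 further along, and H2bc1 with H2ac1. Copies of near-identical sequence are frequent among them. Each promoter of the table (300 bases) was cut into words of 38 bases, a read length that the labels give, and words found at more than 1 place in the whole promoter table were counted. Of the 17 unmarked genes with a promoter, 9 had more than 50% of their words elsewhere, and of the 41 genes with at least 1 narrow set 0 had (highest 20.2%, H4c11 and H4c12). H2bc23 had 100% of its words elsewhere, H4c17 and H4c18 94.3%, H2ac23 88.6%, H3c14 and H3c15 79.8%, H2ac24 74.5% and H2ac18 and H2ac19 69.2%. The authors kept reads that align to 1 place, so a read pair that lies wholly within such words was not counted, and for these 9 genes a missing peak cannot be told apart from missing reads. The other 8 unmarked genes had 0% of their words elsewhere in the table: H3c13, H2bc18, H2bc15, H4c8, H4c3, H1f6, H2bc1 and H2ac1. The promoter of H4c17 is shown with bases in repeated words in capitals, which here are all 250.
H4c17 (chr13:21811496-21811745, plus strand): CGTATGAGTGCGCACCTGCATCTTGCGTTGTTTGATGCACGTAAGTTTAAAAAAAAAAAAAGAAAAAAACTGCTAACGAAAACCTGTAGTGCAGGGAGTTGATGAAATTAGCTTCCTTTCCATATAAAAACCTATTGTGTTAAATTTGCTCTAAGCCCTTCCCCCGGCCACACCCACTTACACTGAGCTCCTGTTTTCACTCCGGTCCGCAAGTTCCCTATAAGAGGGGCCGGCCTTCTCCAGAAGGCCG
Only promoters were searched, so words repeated elsewhere in the genome were not counted. Without the 9 genes, a choice made after these counts were seen, H3K4me3 touched 44 of 56 windows in both replicates.

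**Figure D2:**
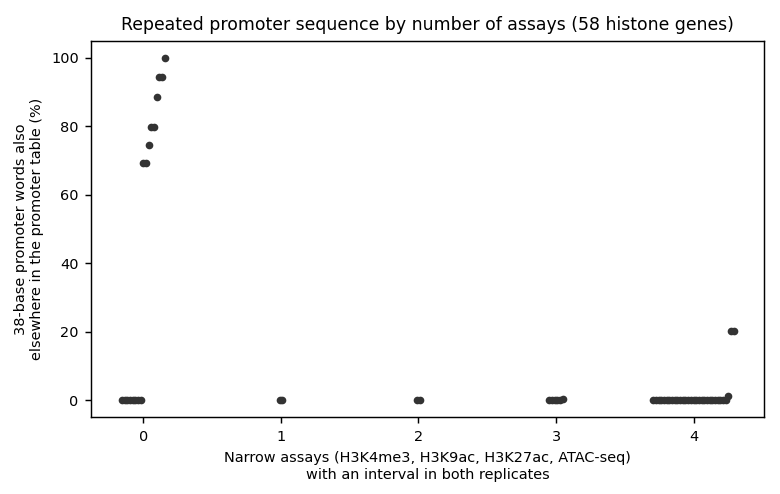
Share of 38-base promoter words that also occur elsewhere in the promoter table (vertical axis, %) for each of 58 histone genes, by the number of narrow assays called in both replicates (horizontal axis; points are spread sideways so that they can be seen). The 9 genes above 50% all have 0 narrow assays, and 8 genes with 0 assays lie at 0%.

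Histone genes no more than 100 kb apart form 5 runs, which cover 421 kb with 1 kb added at both ends. The chr3 cluster (chr3:96218885-96271192) holds 10 genes, and 3 of them, all at its left end, had H3K4me3 in both replicates. On chromosome 13, the first cluster (chr13:21714711-21834475) had H3K4me3 at 12 of 18 genes, the second (chr13:22034122-22044658) at 5 of 5, the third (chr13:23530044-23765412) at 24 of 30, and the Th2a/Th2b pair of H2ac1 and H2bc1 (chr13:23932725-23935913) at 0 of 2. In the first cluster 5 of the 6 unmarked genes, from H2bc23 to H2ac24, were neighbours at the right end. All 5 have repeated promoter words, from 74.5% (H2ac24) to 100% (H2bc23). Missing peaks there cannot be told apart from missing reads, so the block may not be one of unmarked genes. The same limit holds in the chr3 cluster for H3c15 and H3c14 (79.8% each) and H2ac19 and H2ac18 (69.2% each). The H3K4me3 counts of these 2 clusters include such genes.

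Over the 5 clusters, H3K4me3 covered 11.8% ± 0.369 of base pairs (SD, n = 2 replicates), H3K9ac 14.5% ± 0.00588, H3K27ac 17.7% ± 0.0228 and ATAC-seq 3.47% ± 0.433. Over all 20 chromosomes these sets covered 1.06%, 0.914%, 1.20% and 0.356%. Acetylation thus exceeded H3K4me3 in the clusters in both replicates, by more than the spread between them, and H3K9ac covered less than H3K4me3 over all chromosomes. The marks stayed near the genes. H3K4me3 covered 25.5% ± 0.388 of the windows and 1.24% ± 0.354 of the DNA between them, H3K9ac 31.2% ± 0.105 and 1.61% ± 0.0704, H3K27ac 36.4% ± 0.269 and 3.29% ± 0.247, and ATAC-seq 7.99% ± 0.996 and 0%. Windows make up 43.5% of the clusters.

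**Figure D3:**
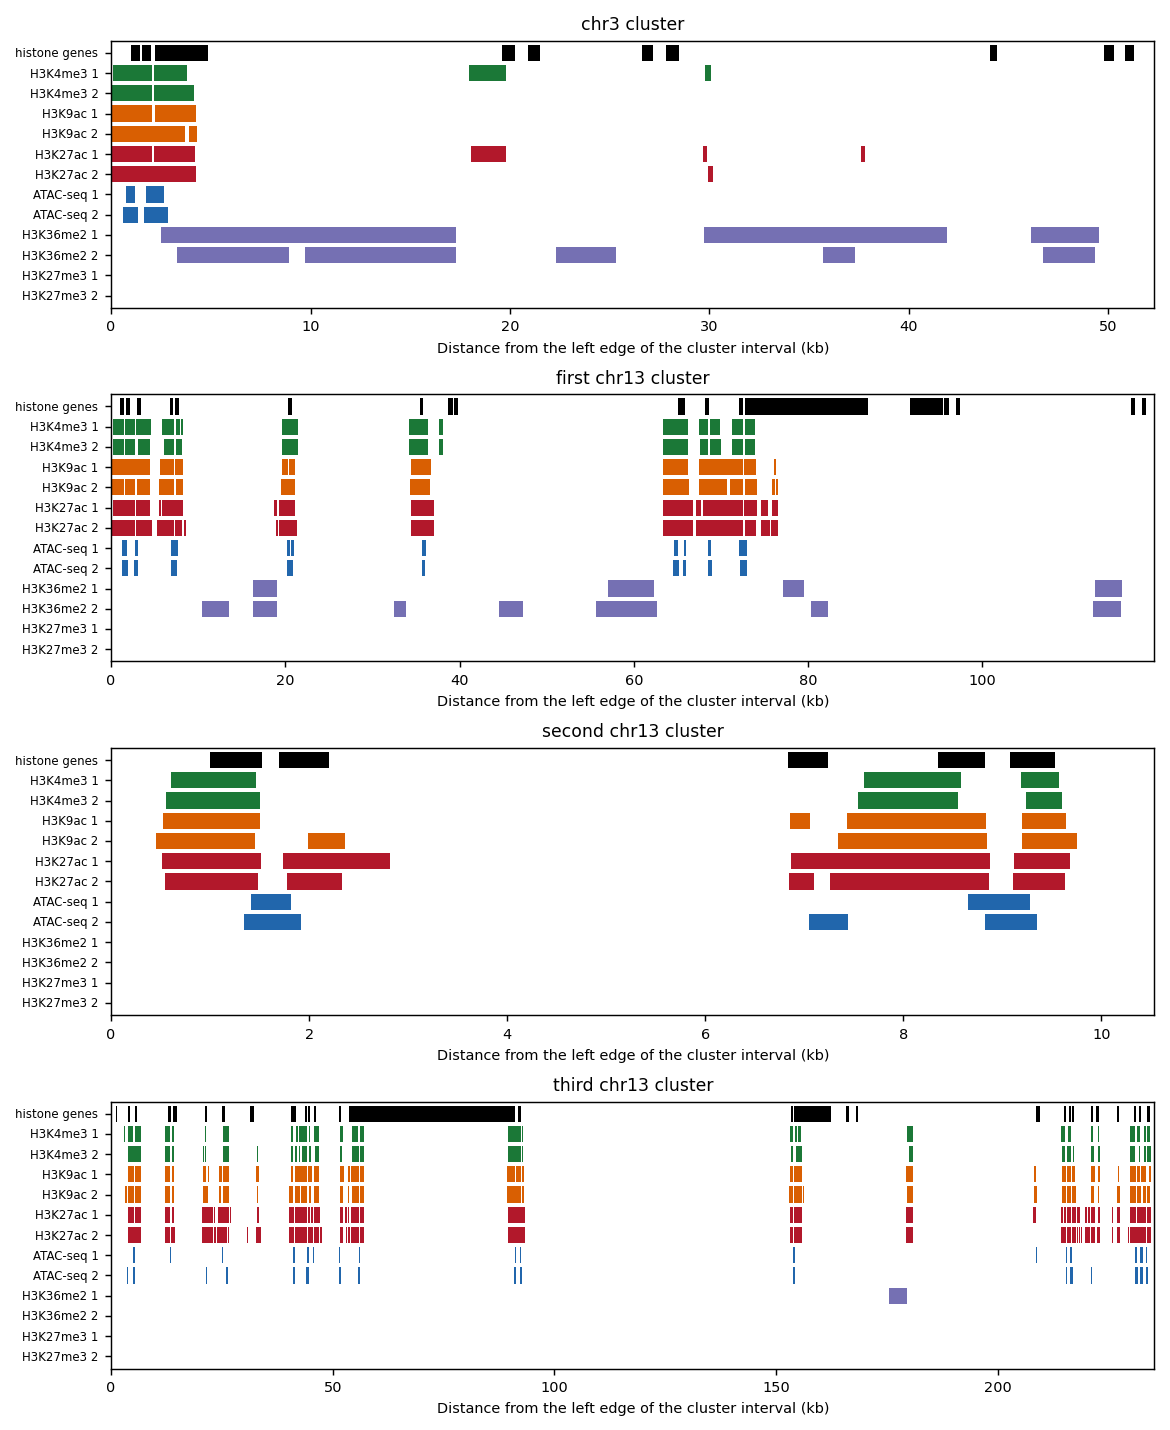
Histone genes (black) and called intervals of each assay and replicate (coloured bars) along 4 clusters, by distance from the left edge of each cluster in kb, with a separate scale for each cluster. Narrow marks come as islands at the genes, and H3K36me2 lies mainly between the genes of the chr3 cluster and the first chr13 cluster.

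No interval ran along a whole cluster. The longest H3K4me3 interval of the third chr13 cluster was 2976 and 2808 bp in replicates 1 and 2 and lay at H1f4 and the long H2bc6 span, and that of the first cluster was 2876 and 2912 bp at H1f5. In the second cluster it was 977 and 1010 bp and touched the windows of H4c9, H2ac11 and H2bc11, and in the chr3 cluster 1999 and 2027 bp, touching H2ac21, H2ac20 and H2bc21. The widest H3K27ac interval was 4680 and 5450 bp and reached from H3c11 to H2ac22 and the window of H2bc22. In no cluster did 1 interval of H3K4me3 touch more than 3 windows, or 1 of H3K27ac more than 4. Of H3K4me3 base pairs in the clusters 95.9% and 97.1% were also under H3K27ac, whereas 65.3% and 63.1% of H3K27ac base pairs were under H3K4me3. Of ATAC-seq base pairs, 51.5% and 55.4% were under H3K4me3 and 73.6% and 78.7% under H3K27ac.

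Peaks at histone genes were narrow for H3K4me3. The 50 intervals that touched a window in each replicate had median widths of 836.5 and 892.5 bp, against 1351 and 1363 bp for all H3K4me3 intervals and 1848 and 1833 bp for those near gene starts. H3K27ac went the other way, with 969 and 998 bp at histone genes against 818 and 808 bp for all intervals, though those near gene starts were wider still (1371 and 1385 bp). H3K9ac widths were 868 and 899 bp against 955 and 948 bp, and ATAC-seq widths 400 and 459.5 bp against 418 and 428 bp. The differences in H3K4me3 and H3K27ac width exceeded those between replicates, and the ATAC-seq difference changed sign between replicates. The peaks are also split: with intervals up to 1000 bp apart joined, H3K4me3 peaks at histone genes had median widths of 2301 and 2152 bp, against 1564 and 1564 bp for all H3K4me3 intervals joined in the same way.

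Around the starts, the marks flanked a gap that ATAC-seq filled. At 500 bp before the start H3K4me3 covered 44.8% and 39.7% of the 58 genes, at 100 bp before it 13.8% and 13.8%, and at 500 bp after it 56.9% and 56.9%. ATAC-seq covered 3.45% and 5.17%, 50.0% and 53.4%, and 1.72% and 1.72% at the same places. H3K27ac had the same dip, from 63.8% and 62.1% to 24.1% and 27.6% and back to 65.5% and 63.8%. Over all 26794 genes with a start H3K4me3 had no such dip, with 24.3% and 24.1%, 31.7% and 31.7%, and 31.2% and 31.1%. The ATAC-seq interval nearest to a histone gene start had its midpoint at a median of -40.25 bp in replicate 1 and -59.75 bp in replicate 2 (34 genes each, negative values before the start), and within 300 bp of it for 33 genes in each replicate.

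**Figure D4:**
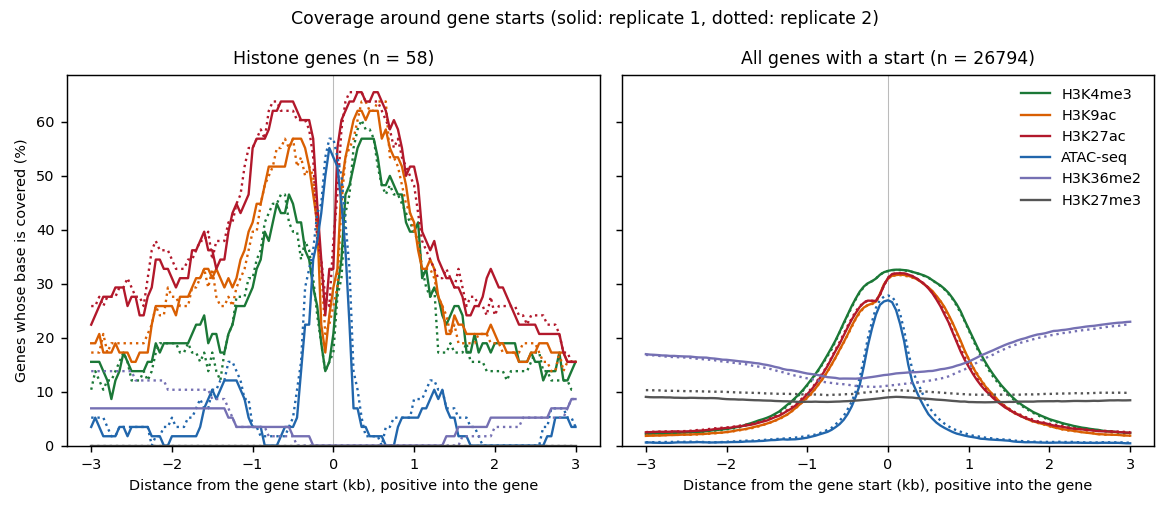
Percentage of genes whose base is covered by each assay (vertical axis) by distance from the gene start in kb (horizontal axis), for 58 histone genes (left) and all 26794 genes with a start (right), with replicate 1 solid and replicate 2 dotted. At histone genes the 3 marks fall to a low about 100 bp before the start, where ATAC-seq is near its top, and over all genes H3K4me3 has no such low.

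To count such gaps gene by gene, a gap was called where the base 100 bp before the start was uncovered and the mark lay within 900 bp on either side of that base, in both replicates. This definition was chosen after the profile had been seen. H3K4me3 flanked that base at 28 histone genes and left a gap at 19 of them, 67.9%, against 0.937% (80 of 8537) of all genes flanked by it, the 19 included. For H3K9ac the counts were 19 of 32 (3.74% of all genes) and for H3K27ac 20 of 36 (5.21%). In 16, 15 and 15 of these gaps (84.2%, 78.9% and 75.0%) ATAC-seq covered the base in both replicates. Over all genes it covered 86.25%, 89.3% and 90.3% of the gaps, so ATAC-seq at a gap was not particular to histone genes. The gap was present for all 3 marks at 14 genes. Among them H2bc9, H3c4, H2ac6, H3c3, H3c2 and H4c1 are in no head-to-head pair of genes with a start in the promoter table. H2bc4, which has no start there, has its left edge at chr13:23684199, near the H2ac6 start at chr13:23683959. Whether these 2 form a pair could not be read.

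Close neighbours moved with the gap. All 19 genes with an H3K4me3 gap had another histone gene within 2 kb of the start, as did 24 of the 28 flanked genes, and 0 of the other 4 had a gap. For H3K27ac it was 19 of 29 with and 1 of 7 without such a neighbour. Marks before the start can then belong to the neighbour, and how far this sets the gap was not tested. Over all genes with the start of another gene within 2 kb, 1.10% (32 of 2916) had an H3K4me3 gap. Head-to-head pairs also count the same DNA for each gene: 10 of the 19 genes form 5 pairs in which both genes have a start in the promoter table.

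Among genes with a start in the promoter table, 9 H2A and H2B pairs start within 500 bp of each other and point apart. They have 164 to 281 bp between their starts, with a median of 180 bp. H2bc21 and H2bc4 have no start there, so pairs with their neighbours H2ac20 and H2ac6 were not read. In 6 of the 9, 1 ATAC-seq interval ran over both starts in both replicates, and in 0 did an H3K4me3 interval do so. The 9 include H2bc23 with H2ac23 and H2bc1 with H2ac1, which had no narrow mark. Pairs of other genes were not counted, so whether this is particular to histone genes cannot be said. H2ac8 and H2bc8, whose shared promoter is the H2bc8 line above, had 0% of the DNA between their starts under H3K4me3, H3K9ac or H3K27ac in either replicate, and 100% under ATAC-seq intervals of 516 and 603 bp. At H2bc13 and H2ac13 H3K27ac ran over both starts in both replicates while H3K4me3 covered 30.9% and 23.9% of the DNA between them. The 3 pairs without ATAC-seq were H2ac15 with H2bc15, H2bc23 with H2ac23, and H2bc1 with H2ac1.

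Acetylation covered more of the DNA around the starts than H3K4me3, a measure of base pairs covered and not of distance reached. Within 2 kb on each side of the start, H3K27ac covered a median of 2762 and 2827 bp and H3K4me3 1918 and 1840 bp at the 37 histone genes with both marks in both replicates. H3K27ac covered more than H3K4me3 in both replicates at 35 of those 37 (94.6%), against 12.5% of 9156 genes with both marks, and the median difference was 1014 and 881 bp against -315 and -286 bp over all genes. H3K9ac covered more at 32 of 37 (86.5%), against 4.28% of 9181 genes, with median differences of 500 and 481 bp against -271 and -261 bp. H3K4me3 itself covered a median of 1966 and 1945 bp over all genes with both marks, where H3K27ac covered 1640 and 1663.5 bp. Other histone genes lie within this reach for 30 of the 37, and H3K27ac covered more at 28 of those 30 and at 7 of the 7 without such a neighbour. Within the gene windows, H3K27ac covered more than H3K4me3 at 40 of 43 genes and less at 0, and H3K9ac covered more at 36 and less at H4c11. The windows of all genes were not counted in this way.

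**Figure D5:**
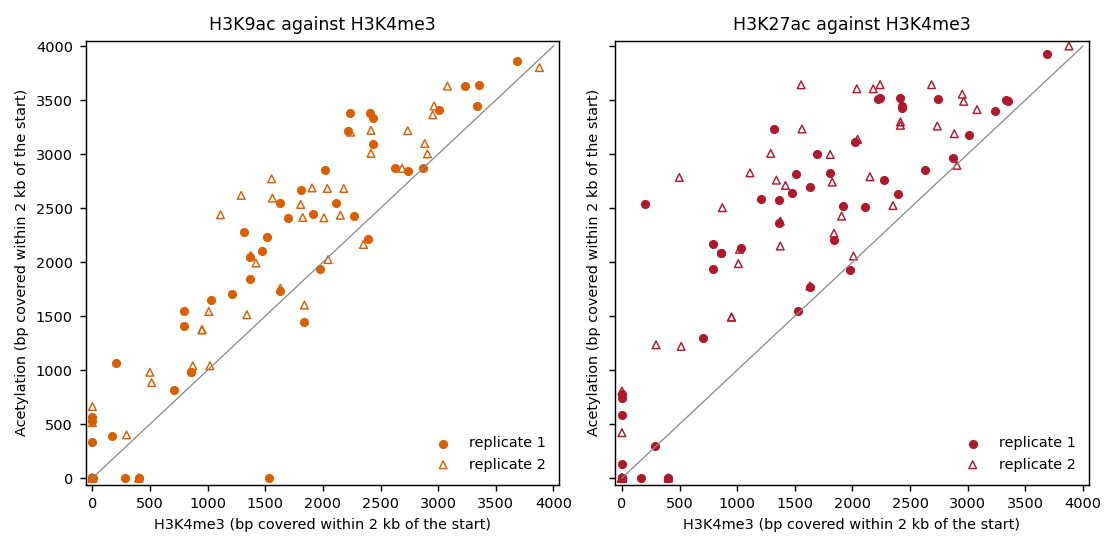
Base pairs within 2 kb of the start covered by H3K9ac (left) or H3K27ac (right) on the vertical axis against those covered by H3K4me3 on the horizontal axis, for 58 histone genes, with replicate 1 filled, replicate 2 open and equal coverage as a line. Most points with both marks lie above the line, as 35 of 37 genes do for H3K27ac in both replicates.

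H3K36me2 kept away from the genes. It covered 10.8% ± 0.907 of the clusters, close to its 11.9% of all chromosomes, but 3.21% ± 0.476 of the windows and 16.6% ± 1.24 of the DNA between them. It covered 58.1% and 39.0% of the length of the chr3 cluster in replicates 1 and 2 and 11.4% and 18.5% of that of the longer first chr13 cluster. In base pairs the chr3 cluster held more in replicate 1 (30397 against 13596 bp) and less in replicate 2 (20395 against 22193 bp). The third cluster had 1.70% in replicate 1 and 0% in replicate 2, and the second 0% in both. Replicates overlapped only in part, and in the chr3 cluster the ratio of shared base pairs to those in at least 1 replicate was 0.521. H3K36me2 touched H2bc21, H2bc22 and H3c13 in both replicates. At 100 bp before the start, at the start and 500 bp after it H3K36me2 covered 0% of the 58 genes in both replicates, against 12.9% and 10.9% of all genes at 100 bp before the start.

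H3K27me3 was not called anywhere in the 5 clusters, while it covered 10.9% of all chromosomes. The nearest H3K27me3 interval to any histone gene lay 28.3 kb away in replicate 1 and 15.1 kb away in replicate 2, both at the first chr13 cluster, and the median distances over the 65 genes were 144 and 343 kb. This holds also for the testis genes: H2ac1 and H2bc1, with no narrow mark, lay about 112 kb from H3K27me3 in replicate 1 and about 698 kb in replicate 2, and H1f6 had none in its window.

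The genes for factors that switch histone genes on and make their mRNAs carried H3K4me3 and H3K27ac. Of 22 genes for transcription and processing, among them Npat, Casp8ap2, Hinfp, Pou2f1 (OCT1), Cdk2, Ccne1 and Slbp (the stem-loop binding protein), H3K4me3 was called in both replicates at 22, H3K27ac at 22, H3K9ac at 21 (at Gon4l in 1 replicate only) and ATAC-seq at 20, against 50.9%, 50.7%, 49.6% and 46.1% of coding genes. The 11 chaperone genes, which include Asf1a, Chaf1a and Nasp, had H3K4me3, H3K9ac, H3K27ac and ATAC-seq at 11 each, against the same shares of coding genes. H3K27me3 was called in both replicates at 0 of the 22 and 0 of the 11, against 16.9% of coding genes. Replication-independent histone genes, which are expressed outside S phase as well, had H3K4me3 at 9 of 14, beside the same 50.9% of coding genes. The 5 without it were Macroh2a2, H1f10 and the germ-line linker histone genes H1f7, H1f8 and Hils1. H3K36me2 was called in both replicates at 20 of the 22, 8 of the 11 and 9 of the 14, against 44.6% of coding genes and 3 of the 65 replication-dependent genes. The windows were not matched for length, and 7.33% of coding genes of at most 2 kb had H3K36me2.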

How the data were processed

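ChIP-seq of 5 histone marks and ATAC-seq of EL4 cells were analysed, with 2 libraries each. Per the labels, STAR 2.5, Picard, MACS2 and GRCm38 were used. The methods state that reads with 1 alignment were kept, that narrow peaks were called with MACS2 and broad ones (H3K36me2 and H3K27me3) with Epic. The authors deposited 3 columns per list, the chromosome, start and end of each interval in base pairs, with no score or count, so depth and intervals that need it are unknown.

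Genes and promoters came from RefSeq tables of GRCm38.p6. Counts, covered base pairs and widths were computed per replicate in Python 3.11.15 with numpy 2.4.6 and pandas 2.3.3 (figures with matplotlib 3.10.9), and the interval steps were checked on simulated intervals against base-by-base counting and bedtools 2.31.1. Background shares come from the same counts over all genes, histone genes included. All 65 genes could be named, with pathway and marker genes from lists. The members, the lists and the tests were chosen with earlier results of these data known. No p-value was computed. The alternatives changed the window, the overlap, the interval width, the joining of intervals and the replicates used.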

Additional observations from a re-analysis of the deposited data

How the results depend on the processing

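Peak lists give no depth, and only widths and positions limit what can be said. Replicates were called separately and are technical, so their spread holds no difference between cultures. No paired analysis was possible because the results come from no test. Over the alternatives, 84 of 127 planned values and 31 of 33 values added after the data were examined stayed within 1.5 times the count or within 1 SD of the mean of both replicates. For the values that moved, the cause was not tested.

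Counts of genes touched in both replicates moved for ATAC-seq to 21 with intervals of at least 500 bp, and for H3K36me2 to 15 with 5 kb on each side, 1 around the start and 6 in either replicate, and ranged from 4 to 5 without one replicate. Counts of H3K4me3, H3K9ac and H3K27ac stayed within 1.5 times. H3K27me3 stayed at 0.

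The share of the clusters covered was, for the union of both replicates, 13.01% for H3K4me3, 15.7% for H3K9ac, 19.2% for H3K27ac, 4.26% for ATAC-seq and 14.8% for H3K36me2, and for the intersection 10.6%, 13.2%, 16.2%, 2.69% and 6.74%. With intervals within 1000 bp joined it was 14.1%, 16.6%, 20.1% and 4.62% for the 4 narrow sets, and with intervals of at least 500 bp 10.5%, 13.4%, 16.5% and 1.998%. With genes up to 50 kb apart joined it was 13.7%, 16.8%, 20.6%, 4.04% and, for H3K36me2, 12.5%. A margin of 10 kb gave 13.4% for H3K9ac, 15.9% for H3K27ac and 8.86% for H3K36me2, and leaving out the Th2a/Th2b pair gave 14.6% and 17.8% for the acetylations.

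Median widths were, for the intersection, 813.5 bp for H3K4me3, 761.5 bp for H3K9ac, 887 bp for H3K27ac, 358 bp for ATAC-seq and 4099 bp for H3K36me2. For the union they were 943.5 bp for H3K9ac, 1051 bp for H3K27ac and 487 bp for ATAC-seq. Joining intervals within 1000 bp gave 2226.5, 2600.5, 2869.5 and 529.5 bp for H3K4me3, H3K9ac, H3K27ac and ATAC-seq.

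Gaps at the start were called at 17 to 21 genes for H3K4me3, 14 to 24 for H3K9ac and 14 to 23 for H3K27ac over the alternatives, which included the start itself as the base read, joining of intervals within 100 bp and either replicate alone. H3K27ac covered more than H3K4me3 at 33 to 39 genes and H3K9ac at 30 to 35.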

Other observations

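Genes with former Hist names outside the rule were read in the same way. On chromosome 11, H2bu2 (Hist3h2ba), H2bu1-ps (Hist3h2bb) and H2aw (Hist3h2a) had H3K4me3, H3K9ac, H3K27ac and ATAC-seq in both replicates, with 1930 and 1825 bp, 2438 and 2286 bp, and 2508 and 2409 bp of their windows under H3K4me3. H4f16 (Hist4h4), on chromosome 6, had ATAC-seq in both replicates (295 and 581 bp) and no narrow mark. H4bc24 and H2af-ps2, on chromosome 13, had no interval of any assay.

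The clusters also hold 10 genes that the rule does not take, H4bc24 among them. H3K4me3 was called in both replicates at 2 of them, against 29% of all genes. These were Hfe, which controls iron uptake, and the lncRNA Gm11335. Hfe also had both acetylations in both replicates. H3K27me3 was called at 0 of the 10, against 15.2% of all genes.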
